A study of Mus musculus with 18 samples.

Results

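RNA-seq counts were compared between naive and tolerized CD4 T cells for how their genes responded to PI, the combination of the phorbol ester PMA and the calcium ionophore A23187. The comparison was the log2 response to PI in tolerized cells (TPI against T0) minus that in naive cells (NPI against N0), taken over 12 of the 18 libraries and all 37991 Ensembl genes listed. The cells were enriched from spleens of Tg4 mice, whose transgenic T cell receptor recognises a peptide of myelin basic protein presented by H-2u, and mice of both sexes were used at 6 to 12 weeks of age. N0 were resting naive cells from mice given PBS, and T0 were resting tolerized cells from mice given escalating doses of the Ag peptide MBP Ac1-9[4Y] under the skin. NPI and TPI were the naive and tolerized cells after 2 h in culture with 20 ng/mL PMA and 2 µM A23187, and each group held 3 libraries. NAg and TAg, from mice given a last injection of Ag 2 h before harvest, entered the fit and are used below only for values set beside those with PI. All groups carry the same receptor transgene, and the naive population is predominantly rather than purely naive. The N0 and T0 cells were taken from the mice without culture, so the effect of PI and that of 2 h in culture cannot be told apart within either cell state.

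PMA stands in for diacylglycerol and activates protein kinase C and RasGRP1, while the ionophore lets calcium into the cytosol and so activates calcineurin and NFAT. Together they act below the T cell receptor and its membrane-proximal kinases, and reach AP-1, NFAT and NF-κB without receptor engagement. A difference in response between cell states is therefore a statement about 4 groups at once, and a gene can reach it by rising further, rising less, falling further or falling less in tolerized than in naive cells. A difference above zero is called higher here (a stronger rise or a weaker fall in tolerized cells) and one below zero lower (a weaker rise or a stronger fall).

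Total counts ranged from 10758571 to 11453566 in the resting libraries and from 14895843 to 24119489 in the libraries with PI. T cell markers were high in every group, with summed normalized counts of 30574 to 32243 in N0, 26043 to 30255 in T0, 27788 to 31446 in NPI and 31112 to 34506 in TPI over the 8 genes of the list. Markers of other cells moved with the groups of the comparison: the 13 neutrophil genes summed to 109 to 237 in N0, 75.5 to 185 in NPI, 2182 to 3653 in T0 and 446 to 759 in TPI, with 3 of them at 0 in NPI. The 10 erythroid genes summed to 271 to 2325 in T0, where replicate 1 held the highest sum, and to 246 to 409 in TPI, against 47 to 221 in N0, where 1 gene was at 0, and 28 to 84.3 in NPI. Y-linked reads were present in all 6 libraries with PI and in T0 replicates 1 and 2, and *Xist* reads in N0 and T0 replicate 3, so that sex and PI cannot be told apart in the naive cells. In bulk libraries fewer cells of a type and less RNA per cell cannot be told apart either.

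Of 17240 genes tested, 301 had a higher PI response in tolerized cells (1.75%) and 253 a lower one (1.47%). A call needed an adjusted p below 0.05 in edgeR's quasi-likelihood test, a log2 difference of at least 1, which is a 2-fold difference between the responses, and a mean above 50 normalized counts in whichever of the 4 groups was highest. Adjusted p alone was met by 2187 genes in the higher and 1297 in the lower direction, so that most differences were smaller than 2-fold. The median difference was -0.039 over all genes tested and 1.26 in size over the called genes of either direction. A fit to the 12 libraries alone, which was scaled without the Ag libraries, moved the median of all genes to -0.12 and called 236 genes higher and 372 lower, and 228 of the 301 and 245 of the 253 were among them. With scores of the neutrophil, erythroid and macrophage markers as covariates, which differ between the groups, 211 genes were called higher and 19 lower, and 102 and 8 of the original calls remained. The part of other cell types in the calls was not tested beyond that fit.

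**Figure D1:**
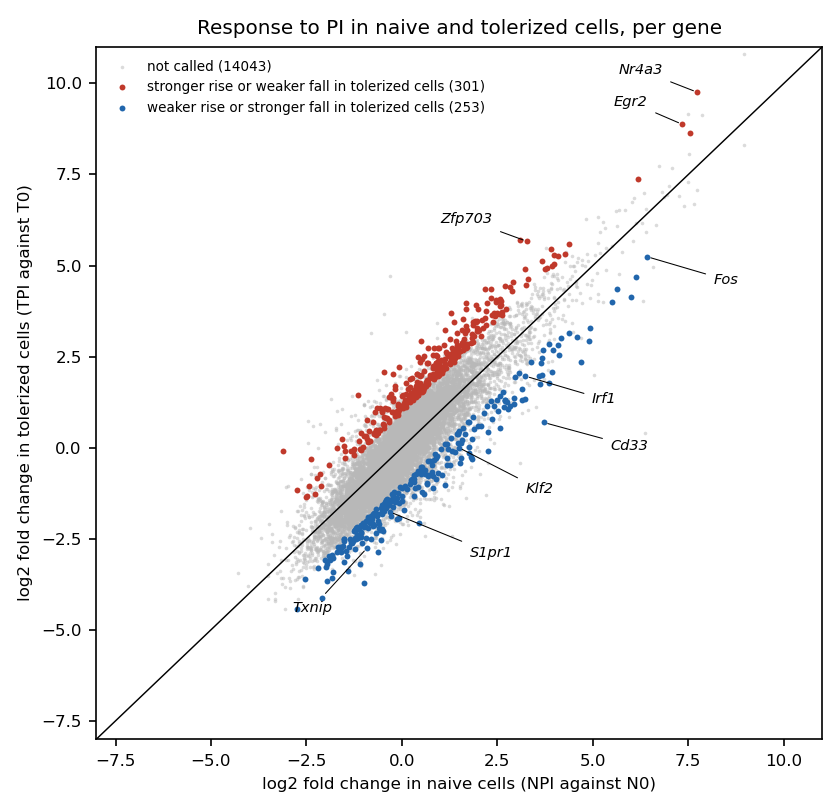
Log2 response to PI in naive cells (horizontal) and in tolerized cells (vertical) for the 14597 genes with more than 3 counts in at least 1 library of each of the 4 groups, 2 of which lie outside the frame. The line marks equal responses: the 301 genes called higher lie above it and the 253 called lower lie below it, and both sets run from genes that fell to genes that rose strongly.

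The genes with a higher response were mostly genes that PI induced. In tolerized cells 245 of the 301 passed the same call as induced by PI, where 13.3% of all genes did, and 115 of these were also called induced in naive cells, where 10.1% of all genes were (10.3% were called reduced there and 13.7% in tolerized cells). Another 129 were called induced in tolerized cells and not called in naive cells, 1 was called reduced in naive and induced in tolerized cells, 22 were called reduced in naive cells and not called in tolerized cells, 4 were called reduced in both and 30 were called in neither. These counts use the same libraries as the difference itself and describe where it came from. The median response of the 301 was 0.74 in naive and 2.08 in tolerized cells on the log2 scale. The genes with a lower response divided differently: 80 of the 253 were called induced in naive cells, of which 41 were also called induced in tolerized cells, 38 were not called there and 1 was called reduced. Another 83 were called reduced in tolerized cells and not called in naive cells, 50 were called reduced in both, 2 were called reduced in naive cells alone, 1 was called induced in tolerized cells alone and 37 were called in neither. Their median response was 0.047 in naive and -1.248 in tolerized cells.

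Promoter sequences are shown for 5 of the called genes, 3 of them higher and 2 lower, to let the letters be read beside the values that follow. They come from RefSeq on GRCm38.p6, run from 250 bases before to 50 bases after the annotated start in the direction of the gene, and were matched by symbol. Capitals mark 3 short motifs found on either strand: TGANTCA, the AP-1 motif, where N is any base, TGACGT, the core of the CRE motif that CREB and ATF factors bind, and TGGAAA, the core of the NFAT motif. A match of the AP-1 motif is never a match of the CRE core, though they can share bases, and TGACGTCA holds the CRE core on both strands.
Nr4a3, chr4:48045055-48045354, plus strand, higher: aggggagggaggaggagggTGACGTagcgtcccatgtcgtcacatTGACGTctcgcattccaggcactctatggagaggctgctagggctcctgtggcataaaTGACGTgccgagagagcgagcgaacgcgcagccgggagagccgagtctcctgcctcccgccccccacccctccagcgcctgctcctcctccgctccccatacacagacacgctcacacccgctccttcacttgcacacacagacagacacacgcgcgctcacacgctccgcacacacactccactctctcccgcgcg
Stk38l, chr6:146724680-146724979, plus strand, higher: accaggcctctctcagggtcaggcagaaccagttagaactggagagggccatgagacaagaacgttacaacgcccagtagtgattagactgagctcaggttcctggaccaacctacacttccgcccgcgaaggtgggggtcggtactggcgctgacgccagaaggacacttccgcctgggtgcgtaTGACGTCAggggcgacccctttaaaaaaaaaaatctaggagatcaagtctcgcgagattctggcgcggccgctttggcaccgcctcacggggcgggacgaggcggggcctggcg
Zap70, chr1:36761548-36761847, plus strand, higher: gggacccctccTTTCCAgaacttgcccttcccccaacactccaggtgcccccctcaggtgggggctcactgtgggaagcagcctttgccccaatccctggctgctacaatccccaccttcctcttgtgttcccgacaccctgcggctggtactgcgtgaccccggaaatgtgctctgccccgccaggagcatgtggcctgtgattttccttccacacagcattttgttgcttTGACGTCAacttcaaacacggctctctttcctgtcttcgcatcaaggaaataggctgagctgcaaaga
Fos, chr12:85473640-85473939, plus strand, lower: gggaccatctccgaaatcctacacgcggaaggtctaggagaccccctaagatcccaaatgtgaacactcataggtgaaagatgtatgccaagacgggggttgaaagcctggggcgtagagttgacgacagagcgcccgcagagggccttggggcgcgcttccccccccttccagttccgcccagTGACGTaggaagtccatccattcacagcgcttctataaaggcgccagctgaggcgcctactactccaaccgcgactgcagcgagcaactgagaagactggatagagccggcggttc
Klf2, chr8:72318812-72319111, plus strand, lower: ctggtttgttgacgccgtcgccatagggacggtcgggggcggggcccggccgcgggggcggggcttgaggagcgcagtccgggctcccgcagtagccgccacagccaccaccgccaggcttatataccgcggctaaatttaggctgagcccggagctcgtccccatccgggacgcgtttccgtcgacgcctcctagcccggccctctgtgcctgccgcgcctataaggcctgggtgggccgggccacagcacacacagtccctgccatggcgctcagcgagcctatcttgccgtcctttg

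The *Nr4a3* window held the CRE core at 3 places, the *Stk38l* and *Zap70* windows held it as the full palindrome, the *Zap70* window also held the NFAT core, and the *Fos* window, of a gene with a lower response, held 1 CRE core. None of these motifs was in the *Klf2* window. These windows were picked as examples, and the higher ones shown all held the CRE core, which most windows of higher genes did not. Over the called genes whose symbol had a promoter in the table, the CRE core was in 36 of 179 windows of the higher genes (20.1%) and in 13 of 159 of the lower genes (8.18%), where 11.5% of the 10163 windows of tested genes held it. The NFAT core was in 14.5% of the higher windows, 21.4% of the lower and 17.1% of all, and the AP-1 motif in 6.15%, 4.40% and 5.35%. These shares are descriptions of letters in a window and were not tested.

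The NR4A orphan nuclear receptors and the EGR factors are immediate-early transcription factors, and NAB1 and NAB2 are corepressors that bind EGR proteins. Of the 9 genes on this list, 5 were called higher and none lower, with a median difference of 1.104 against -0.039 for all genes. By adjusted p alone 7 were higher and 1 lower. Of all 17240 tested genes 2187 and 1297 were, the values to set beside each such count below. *Nr4a3* counted 287, 225 and 324 in N0, 50929.6, 66020.5 and 61686 in NPI, 129, 185 and 161 in T0 and 139003, 132768 and 139378 in TPI. Every TPI library was above every NPI library, and the resting T0 libraries were below the N0 libraries, so that *Nr4a3* both started lower and ended higher in tolerized cells (2.02 ± 0.22, adjusted p = 4.02e-06, edgeR with Benjamini-Hochberg adjustment, as for each difference below, with n = 3 libraries per group). *Egr2* counted 139, 51.2 and 116 in N0, 14543, 17857 and 17609 in NPI, 74.3, 106 and 62.3 in T0 and 40285, 37194 and 37082 in TPI, and its TPI libraries were again all above the NPI libraries while the resting groups overlapped (1.53 ± 0.33, adjusted p = 0.00474). *Nab2* counted 517, 458 and 471 in N0, 1447, 1603 and 1676 in NPI, 272, 331 and 344 in T0 and 2795, 2884 and 3159 in TPI (1.51 ± 0.14, adjusted p = 5.33e-08). *Egr3* had a difference of 1.199. *Nr4a1* was the most abundant of these genes and behaved differently at its endpoint: it counted 598, 1041 and 1493 in N0, 193204, 190405 and 200192 in NPI, 495, 495 and 337 in T0 and 177496, 175367 and 179226 in TPI. Its TPI libraries were all slightly below the NPI libraries, and its difference of 1.104 ± 0.35, adjusted p = 0.0415 came from the lower resting level in T0. A call is said to be lost where the adjusted p was no longer below 0.05, and that of *Nr4a1* was lost in 10 of the 12 fits that left out 1 library, including those without N0 replicate 3 (0.77) and without T0 replicate 3 (0.96).

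The NF-κB subunits are transcription factors that IκB proteins hold in the cytosol. Of the 12 NF-κB and IκB genes, 3 were called higher and none lower, the median difference was 0.795, and 8 were higher by adjusted p alone. *Relb*, a subunit of the alternative pathway, counted 476, 451 and 532 in N0, 2393, 2883 and 2802 in NPI, 402, 458 and 377 in T0 and 7132, 6356 and 6908 in TPI. The resting libraries of both cell states lay between 377 and 532, and each TPI library was well above each NPI library (1.58 ± 0.12, adjusted p = 6.03e-09). *Nfkb2*, which encodes the p100 precursor and RelB's partner p52, counted 947, 781 and 997 in N0, 5175, 5593 and 5554 in NPI, 883, 746 and 782 in T0 and 12637, 11547 and 12455 in TPI (1.34 ± 0.12, adjusted p = 4.14e-08). *Rela*, the main transactivating subunit, had a difference of 1.04 ± 0.09, adjusted p = 4.54e-08. *Nfkb1* had a difference of 0.98 ± 0.13, adjusted p = 5.37e-06, just under the limit of 1, and *Rel*, which encodes c-Rel, of 0.81 ± 0.12, adjusted p = 4.12e-05. Genes outside the list that act in this pathway were also among the called genes and were picked after their values were seen: *Tank* (1.700), *Traf1* (1.28) and *Traf3* (1.18), which encode TRAF adaptors and a TRAF-binding protein, and *Hivep1* (1.23), which encodes a zinc finger protein that binds κB motifs. *Traf3* rose by 1.23 in tolerized cells and by 0.048 in naive cells.

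AP-1 genes gave 1 call, and over all tested genes 1.75% were called higher and 1.47% lower. Of the 12 AP-1 and BATF genes 1 was called lower and none higher. The median was 0.32 over the 12 and 0.080 over the 11 with more than 3 counts in at least 1 library of each group. By adjusted p alone 2 were higher and 1 lower, near the shares of all tested genes (2187 and 1297 of 17240). The called gene was *Fos*, the partner of JUN in the classical AP-1 dimer, which counted 1853, 1022 and 1093 in N0, 113307, 106893 and 118625 in NPI, 2096, 1901 and 1893 in T0 and 78727, 73182 and 71373 in TPI. All TPI libraries were below all NPI libraries, and the T0 libraries were above the N0 libraries (-1.17 ± 0.37, adjusted p = 0.0426). The *Fos* call was lost in 11 of the 12 fits without 1 library, with differences between -1.48 and -0.998 over the 12. Among 24 NFAT, IRF and helper T cell factors, *Rcan1*, a calcineurin inhibitor that NFAT induces, was called higher (1.38 ± 0.24, adjusted p = 0.000173), as was *Bhlhe40* (1.11 ± 0.32, adjusted p = 0.0267), and the median was 0.082. The *Bhlhe40* call was lost in 6 of 12 such fits, with values down to 0.97 without N0 replicate 1. *Nfat5*, which encodes a calcineurin-independent NFAT factor and was picked after its value was seen, had a difference of 1.33.

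**Figure D2:**
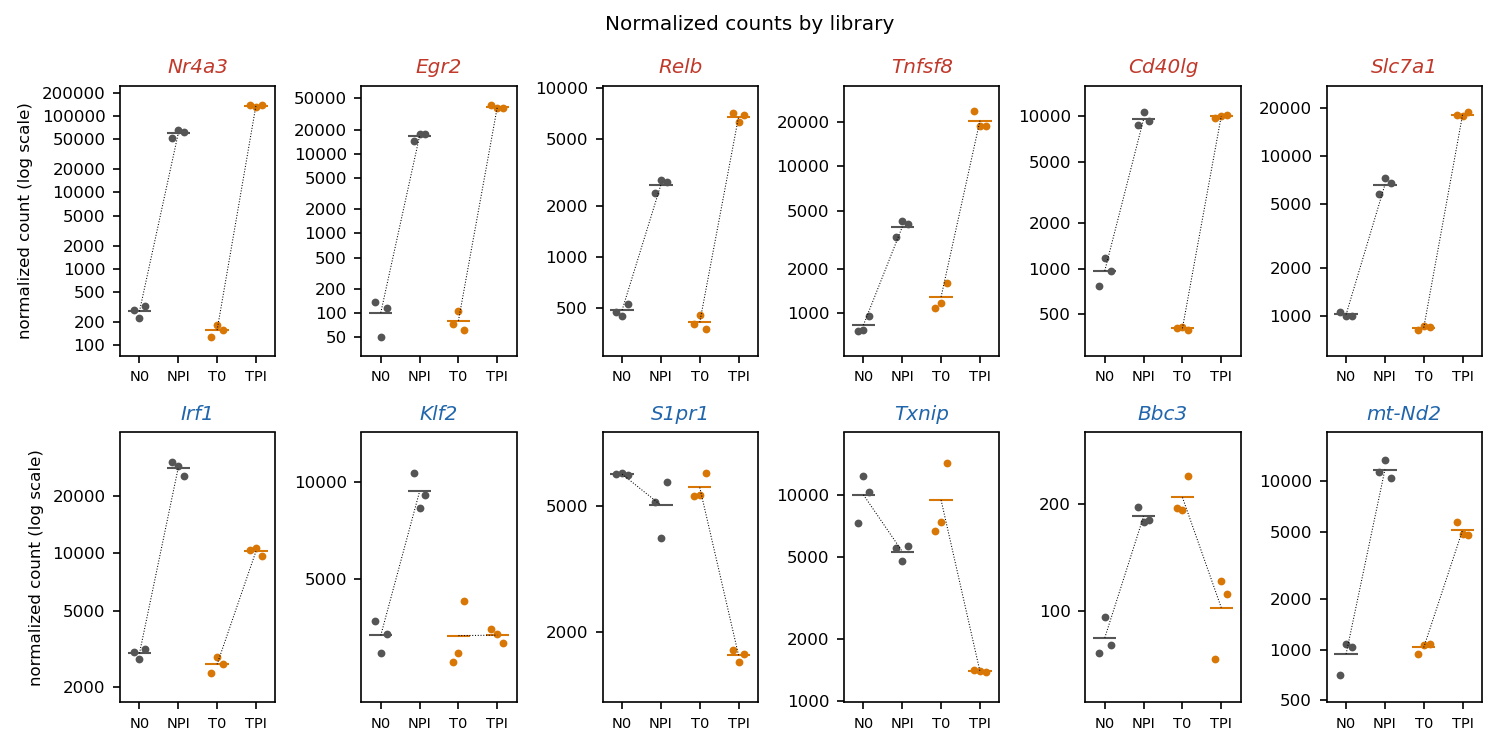
Normalized counts of 12 called genes in the 12 libraries, 1 point per library, on a log scale that differs between panels, with a bar at each group mean and a dotted line from the resting mean to that with PI. The upper row shows genes with a higher PI response in tolerized cells (orange) than in naive cells (grey), such as *Nr4a3* with 59545 in NPI and 137049.7 in TPI on average, and the lower row genes with a lower response, such as *Irf1* with 28067 and 10234.

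Costimulatory receptors and TNF family ligands had the most called members of the 20 pathway lists by count. The lists differed in size, and the NR4A, EGR and NAB list had a larger share called (5 of 9). Of 18 costimulatory and TNF genes 6 were called higher, where 1.75% of all tested genes were, and none lower. Their median was 0.696, and 8 were higher by adjusted p alone. *Tnfrsf4*, which encodes OX40, counted 201, 129 and 179 in N0, 774, 924 and 859.9 in NPI, 223, 241 and 206 in T0 and 4122, 3399 and 4029.9 in TPI. The resting groups were close, and the TPI libraries lay between 3399 and 4122 while no NPI library exceeded 924 (1.78 ± 0.24, adjusted p = 6.68e-05). *Tnfsf8*, which encodes CD30 ligand, counted 764, 776 and 965 in N0, 3334, 4276 and 4036 in NPI, 1097, 1186 and 1610.3 in T0 and 23761, 18768 and 18891 in TPI (1.76 ± 0.30, adjusted p = 0.00093). *Cd40lg*, whose product signals to B cells and dendritic cells through CD40, counted 767, 1179 and 961 in N0, 8750.0, 10717 and 9265 in NPI, 407, 416 and 394 in T0 and 9796, 10102 and 10201 in TPI. Its libraries with PI overlapped between the cell states, and the difference of 1.32 ± 0.20, adjusted p = 0.000175 came from a T0 level below N0. *Tnfrsf18*, which encodes GITR, had a difference of 1.07, *Cd44* of 1.03 and *Fasl*, the death receptor ligand, of 1.004. *Tnfsf9*, which encodes the 4-1BB ligand and was not on the list, had a difference of 1.14 and was picked after its value was seen.

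Co-inhibitory receptors gave 2 higher calls among 12 genes and a median of 0.42. *Btla* counted 2021, 2374 and 2372 in N0, 3841, 4849 and 4493 in NPI, 2342, 2197 and 1773 in T0 and 11511, 10960.2 and 9973 in TPI, with overlapping ranges at rest and every TPI library above every NPI library (1.399 ± 0.14, adjusted p = 2.19e-07). *Cd200*, the ligand of an inhibitory receptor, was called at the threshold (difference 1.06 ± 0.35, adjusted p = 0.0495), and the call was lost in 10 of 12 fits without 1 library, with 0.70 without N0 replicate 1. The counts of the co-inhibitory receptors *Ctla4*, *Pdcd1*, *Lag3*, *Tigit* and *Havcr2* were higher in tolerized than in naive cells both at rest and with PI, and their responses to PI did not pass the test of a difference. *Ctla4* counted 596, 362 and 489 in N0, 5715, 6285 and 6969.8 in NPI, 1854, 1948 and 2754 in T0 and 44489, 34421 and 36040.0 in TPI, a difference in response of 0.42 ± 0.27, adjusted p = 0.313. For *Pdcd1*, which encodes PD-1, it was 0.75 ± 0.27, adjusted p = 0.0657, for *Lag3* 1.35 ± 0.58, adjusted p = 0.129, for *Tigit* 0.42 ± 0.52, adjusted p = 0.638 and for *Havcr2*, which encodes TIM-3, -0.202 ± 0.60, adjusted p = 0.87. *Pdcd1* and *Lag3* passed in DESeq2 (0.76 and 1.35) and without N0 replicate 2 (1.07 and 1.75), and *Lag3* also without T0 replicate 3 (1.74).

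Many cytokine genes were close to absent at rest, and a response from almost no counts has a large error. Of 22 cytokine genes 20 were tested, and 1 was called lower and none higher. The median difference was -0.46 over the 20 and 0.23 over the 10 with more than 3 counts in at least 1 library of each group, so that its sign depended on the genes near zero at rest. *Il2* counted 10.9, 7.31 and 6.94 in N0, 3878, 4870.2 and 4015 in NPI, 1.77, 7.07 and 4.8 in T0 and 6227, 8577 and 10172 in TPI. The TPI libraries were all above the NPI libraries, and the resting levels were too low to settle the response (difference 1.84 ± 1.09, adjusted p = 0.282). *Il21* counted 13.9, 2.09 and 5.95 in N0, 1118, 1601 and 1346 in NPI, 20.3, 61.8 and 32.6 in T0 and 25803, 21003 and 19746 in TPI (1.68 ± 1.07, adjusted p = 0.322), and *Il10* counted 2.97, 0 and 1.98 in N0, 463, 582 and 535 in NPI, 81.4, 89.2 and 61.4 in T0 and 22147, 12099 and 14645 in TPI (-0.48 ± 1.16, adjusted p = 0.834). Both were many times more abundant in TPI than in NPI, and neither difference in response passed in edgeR. *Il10* was between 0 and 2.97 in the N0 libraries. *Il2*, *Il21* and *Nfil3* passed in DESeq2 (1.86, 1.66 and 0.84), where edgeR gave *Nfil3* 0.84 ± 0.39, adjusted p = 0.164. *Tnf*, with 13841, 16665 and 16967 in NPI and 12611, 13928 and 15596 in TPI, had a difference of 0.16 ± 0.24, adjusted p = 0.708. *Csf2* counted 217, 298 and 223 in NPI and 234, 155 and 278 in TPI, with at most 1 read in any resting library, and its difference took either sign across the alternatives. *Il3* was at 0 in every resting library, and counted 32.2, 60.5 and 37.3 in NPI and 28.3, 19.8 and 28.3 in TPI. *Csf1*, which encodes the macrophage growth factor, was the cytokine called lower (-1.03 ± 0.30, adjusted p = 0.0253), and it was more abundant in TPI than in NPI, and the call was lost in 8 of 12 fits without 1 library.

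Chemokine ligands had a median of -0.68 over 13 genes, with 2 called lower and none higher. *Cxcl2*, a neutrophil attractant, counted 0.991, 5.22 and 2.97 in N0, 179, 219 and 202 in NPI, 15, 9.72 and 11.5 in T0 and 196, 271 and 176 in TPI (-1.86 ± 0.58, adjusted p = 0.0251), and *Ccl9* had a difference of -1.01. The NPI and TPI libraries overlapped for *Cxcl2*, and the T0 libraries were above the N0 libraries. Its call was lost without T0 replicate 1 (-1.66), N0 replicate 1 (-1.44) or N0 replicate 3 (-1.84). *Ccl1* counted 108, 194 and 88.3 in NPI and 186, 82.3 and 96.6 in TPI with at most 8.83 at rest, and its difference did not pass (-2.19 ± 2.26, adjusted p = 0.568).

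Signaling genes that lie between the receptor and NF-κB were called in 1 direction. Of 30 genes of PKC, RAS and calcium signaling 3 were called higher and none lower, with a median of 0.15. By adjusted p alone 10 were higher and 3 lower, where 2187 and 1297 of all 17240 tested genes were. *Zap70*, the kinase that acts just below the receptor, counted 2259, 2149.5 and 2184 in N0, 6734, 6805 and 6741 in NPI, 1949, 2098 and 2425 in T0 and 15210.5, 13599 and 15068 in TPI (1.14 ± 0.11, adjusted p = 5.82e-08). *Rasgrp1*, the diacylglycerol-gated RAS exchange factor that PMA activates, counted 6575, 8052 and 7497 in N0, 8438, 8327 and 9217 in NPI, 4949, 4951 and 4971 in T0 and 14984, 13934 and 13192 in TPI. The T0 libraries were below the N0 libraries and the TPI libraries above the NPI libraries (1.27 ± 0.12, adjusted p = 5.33e-08). *Bcl10*, the adaptor of the CARMA1 complex, had a difference of 1.25 ± 0.11, adjusted p = 5.33e-08. Among 14 feedback genes of the ERK pathway, *Spred1* (1.59 ± 0.18, adjusted p = 4.27e-06) and *Dusp16* (1.15 ± 0.20, adjusted p = 0.000265) were called higher and *Dusp1*, a MAPK phosphatase, lower (-1.001 ± 0.18, adjusted p = 0.000491), with a median of -0.102. *Dusp6* did not pass (difference -0.12 ± 0.24, adjusted p = 0.787). *Ndrg1*, a gene linked to T cell anergy, was the 1 called gene of 12 on the anergy list and counted 181, 217 and 275 in N0, 796, 993 and 794 in NPI, 112, 98.9 and 91.1 in T0 and 1778, 1323 and 1489 in TPI. Its T0 level was below N0 and its TPI level above NPI in every library (1.98 ± 0.32, adjusted p = 0.000486).

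Cytokine receptor and STAT genes gave 2 higher calls of 24, *Stat3* (1.06 ± 0.12, adjusted p = 1.35e-06) and *Il6st*, which encodes the shared receptor chain gp130 (1.14 ± 0.11, adjusted p = 1.07e-07), with a median of 0.037. *Il6st* counted 5514, 5785 and 5122 in N0, 5399, 5976 and 5936 in NPI, 5249.6, 5722 and 5305 in T0 and 13549, 11894 and 12395 in TPI. The first 3 groups were level with each other and the TPI libraries stood above all of them. *Jak2*, which encodes a kinase that gp130 uses and was picked after its value was seen, had a difference of 1.27. Among 18 apoptosis genes, *Fas* (1.37 ± 0.20, adjusted p = 7.03e-05) and *Cflar*, which encodes the caspase-8 inhibitor c-FLIP (1.63 ± 0.11, adjusted p = 1.94e-09), were called higher, and *Bbc3*, which encodes the BH3-only protein PUMA, was called lower. *Cflar* counted 3553, 3880.4 and 3423 in N0, 4149, 5219.8 and 4975 in NPI, 2645, 2855 and 2769.9 in T0 and 11342, 11057 and 11449 in TPI. *Bbc3* counted 76.3, 96 and 80.3 in N0, 197, 178 and 180.0 in NPI, 195, 193 and 239.8 in T0 and 73.5, 122 and 112 in TPI, and moved in opposite directions: up in every naive and down in every tolerized library with PI relative to rest (-2.17 ± 0.24, adjusted p = 8.21e-07). The median of the list was 0.018.

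Genes of growth metabolism gave calls in both directions, and over all tested genes 1.75% were called higher and 1.47% lower. Of 30 MYC and ribosome biogenesis genes 2 were called higher, *Srm*, the spermidine synthase gene (1.22 ± 0.14, adjusted p = 1.08e-06), and *Tsr1*, which encodes a ribosome assembly factor (1.02 ± 0.11, adjusted p = 2.9e-07), and none was called lower. By adjusted p alone 20 were higher and 1 lower, where 2187 and 1297 of all 17240 tested genes were, and the median was 0.42. *Myc* itself rose by 4.58 in naive and 5.09 in tolerized cells on the log2 scale (0.51 ± 0.14, adjusted p = 0.0104). *Slc7a1*, the arginine and lysine transporter gene, counted 1064, 997 and 1006 in N0, 5843, 7346 and 6775 in NPI, 822, 859 and 853 in T0 and 18062, 17915 and 18893 in TPI, and was the called gene among 19 of glycolysis and amino acid transport (1.73 ± 0.12, adjusted p = 1.13e-09, list median 0.29), where 8 were higher and 1 lower by adjusted p alone. Among 17 cholesterol synthesis genes *Dhcr7* was called lower (-1.08 ± 0.19, adjusted p = 0.000182), with a list median of 0.13, and by adjusted p alone 3 were higher and 4 lower.

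**Figure D3:**
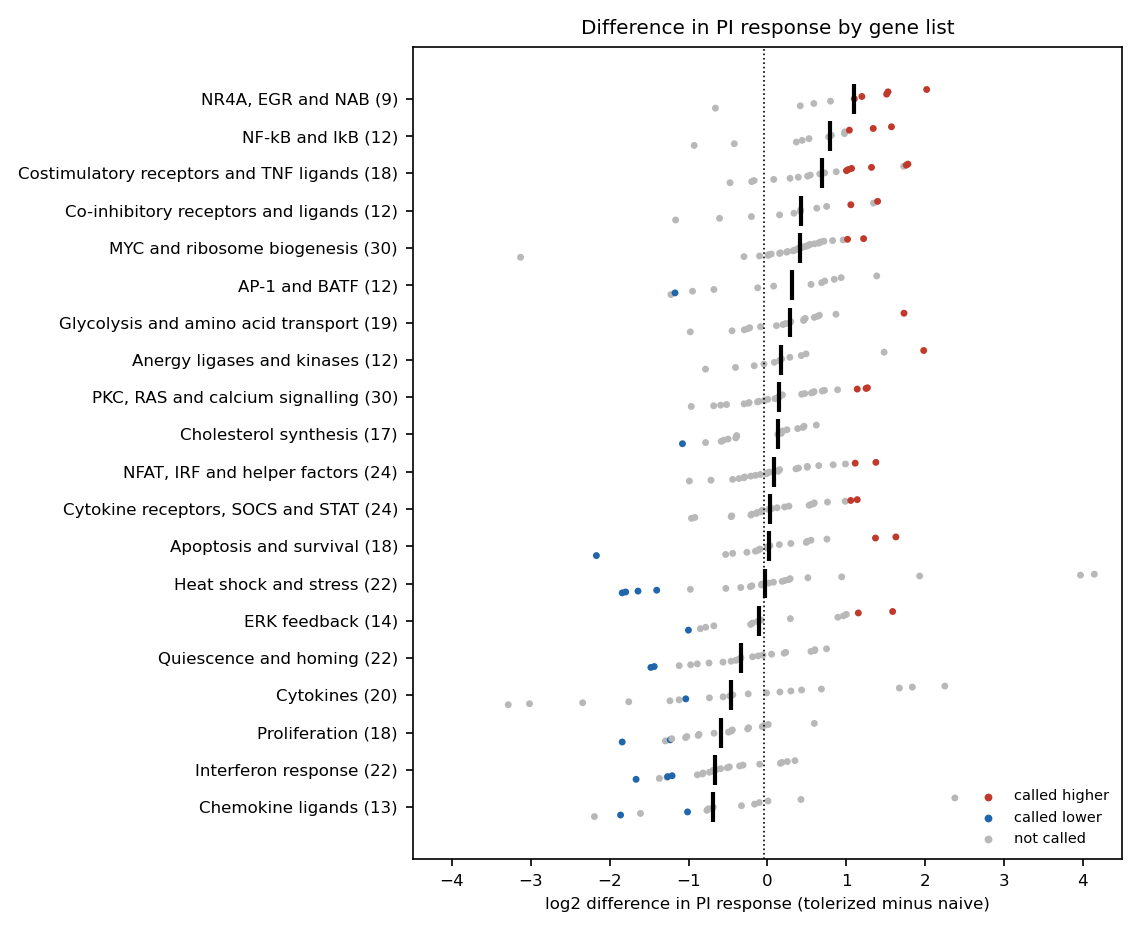
Log2 difference in PI response (horizontal) of each tested gene on the 20 pathway lists, with the number tested in brackets, called genes in red (higher) and blue (lower), a black bar at each list's median and a dotted line at the median of all tested genes (-0.039). Medians run from 1.104 for NR4A, EGR and NAB genes to -0.68 for chemokine ligands.

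Of 368 tested genes on the 20 pathway lists, 31 were called higher and 18 lower, where 1.75% and 1.47% of all tested genes were. The lists were chosen with earlier results of these data known. Of the lower calls 11 lay in the lists of quiescence, stress, interferon and proliferation genes, which held 22, 22, 22 and 18 tested genes. *Klf2* and *S1pr1* were the called genes among 22 of quiescence and homing (median -0.34). KLF2 maintains quiescence and drives S1PR1, the receptor that T cells need to leave lymphoid organs. *Klf2* counted 3687, 2953 and 3378 in N0, 10619, 8294 and 9077 in NPI, 2766, 2951 and 4280.4 in T0 and 3501, 3377 and 3151 in TPI. The resting groups overlapped, every NPI library was above them, and the TPI libraries stayed within the range of T0 (-1.48 ± 0.41, adjusted p = 0.0225), and the call was lost without T0 replicate 3 (-1.24), NPI replicate 1 (-1.37) or N0 replicate 2 (-1.38). *S1pr1* counted 6310.0, 6339.9 and 6261 in N0, 5163, 3977 and 5955 in NPI, 5388, 5406 and 6372 in T0 and 1754, 1607 and 1707 in TPI, and every TPI library was below all other libraries (-1.44 ± 0.16, adjusted p = 2.26e-06). Outside the list, *Pik3ip1*, an inhibitor of PI3K that falls with T cell activation and was picked after its value was seen, had a difference of -1.69 and *Gpr183*, the gene of the migration receptor EBI2, had one of -1.01.

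Stress-response genes gave 4 lower calls and no higher call among 22, while the list's median was -0.025 and none of its 8 *Hsp* genes, which encode heat shock proteins, was called. *Txnip*, which encodes an inhibitor of thioredoxin and of glucose uptake, counted 7327, 12354 and 10264 in N0, 5491, 4787 and 5647 in NPI, 6657, 7339 and 14241 in T0 and 1409.8, 1394 and 1387 in TPI. The resting groups overlapped, and the TPI libraries lay between 1387 and 1409.8 while no NPI library was below 4787 (-1.84 ± 0.42, adjusted p = 0.00732). *Gadd45a* counted 81.2, 104 and 106 in N0, 739, 588 and 584 in NPI, 94.6, 101 and 99.7 in T0 and 282, 222 and 226 in TPI (-1.403 ± 0.26, adjusted p = 0.000564), and *Gadd45g* had a difference of -1.64. *Ddit4*, an mTOR inhibitor, had a difference of -1.797 ± 0.55, adjusted p = 0.0356, lost in 9 of the 12 fits without 1 library, with -1.36 without T0 replicate 3. The largest fitted differences of the list, 4.15 for *Hspa1a* and 3.97 for *Hspa1b*, did not pass (adjusted p = 0.19 and 0.192), and these are near-identical paralogs whose reads may be split.

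Interferon-response genes had a median of -0.67 over 22 genes, with 3 called lower and none higher, and 7 lower by adjusted p alone. *Irf1*, a transcription factor that interferon-γ and NF-κB both induce, counted 3039, 2797 and 3138 in N0, 30165, 28619.5 and 25416 in NPI, 2352, 2873 and 2639 in T0 and 10340.4, 10686 and 9676 in TPI. It rose in all libraries with PI, and each TPI library was below each NPI library (-1.27 ± 0.14, adjusted p = 6.1e-07). *Oas2*, which encodes an antiviral nucleotide synthetase, counted 630.0, 480.2 and 824 in N0, 306, 435 and 469 in NPI, 296, 251 and 202 in T0 and 42, 59.3 and 48.6 in TPI, with the lowest values in TPI (-1.67 ± 0.38, adjusted p = 0.00721), and *Usp18*, a negative regulator of the interferon receptor, had -1.21 ± 0.38, adjusted p = 0.0375, lost in 10 of the 12 fits without 1 library. The interferon-inducible GTPase genes of the GBP and IRG families, listed after results were seen, gave 4 lower calls of 21 and a median of -0.69. The called ones were *Gm12250* (-1.46), *Gm4955* (-1.17), *Ifi47* (-1.03) and *Gbp6* (-1.003).

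Proliferation genes had a median of -0.58 over 18 genes, and *Plk1*, a mitotic kinase (-1.23 ± 0.34, adjusted p = 0.0125), and *Ccnb1*, which encodes cyclin B1 (-1.84 ± 0.57, adjusted p = 0.0252), were called lower. *Plk1* counted 44.6, 43.8 and 53.5 in N0, 41.6, 31.9 and 32.3 in NPI, 67.2, 58.3 and 70.0 in T0 and 18.6, 18.7 and 24 in TPI. The T0 libraries were above and the TPI libraries below the other groups, and these counts were low. The *Ccnb1* call was lost in 5 of the 12 fits without 1 library, with -1.49 without N0 replicate 2. Outside the list, *Aurka* (-1.92), *Cdc20* (-1.02) and *Hist1h1a* (-1.73) were also called lower and were picked after their values were seen. Over 59 replication-dependent histone genes, listed after results were seen, 3 were called lower, none higher, and the median was -0.602.

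Each of the 12 tested protein genes of the mitochondrial genome had a lower response by adjusted p alone, and 4 passed the full call, a group put together after results were seen. Their median difference was -0.89. *mt-Nd2*, a subunit of complex I, counted 705, 1087 and 1041 in N0, 11352, 13453 and 10417 in NPI, 946, 1069 and 1083 in T0 and 5772, 4840.2 and 4814 in TPI (-1.32 ± 0.20, adjusted p = 0.000186). *mt-Nd5* had a difference of -1.12 ± 0.16, adjusted p = 3.06e-05, *mt-Atp6* of -1.17 and *mt-Nd6* of -1.01. Genes of the mitochondrial genome held 0.846% to 0.882% of counts in N0 and 0.861% to 0.943% in T0, and 2.14% to 2.58% in NPI against 1.27% to 1.34% in TPI. The share was higher with PI in both cell states, and every TPI library was below every NPI library.

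The 12 called genes with the largest higher differences included protein genes of unlike function. *Zfp703*, which encodes a zinc finger transcriptional corepressor (chr8:28087808-28091933, mm9), counted 134, 166 and 141 in N0, 1450.0, 1425 and 1401 in NPI, 130.0, 178 and 263 in T0 and 11976, 8479.7 and 8391 in TPI, and rose in both cell states, with the lowest TPI library at 8391 and the highest NPI library at 1450.0 (2.38 ± 0.33, adjusted p = 0.000159). *Stk38l*, an NDR family kinase gene (chr6:146673517-146727334, mm9), counted 279, 287 and 259.8 in N0, 856, 884 and 895 in NPI, 211, 249 and 268 in T0 and 4849, 3378 and 3225 in TPI (2.305 ± 0.20, adjusted p = 3.1e-07). *Tex15*, best known from meiosis, counted 14.9, 4.18 and 9.92 in N0, 79.1, 91.3 and 84 in NPI, 9.73, 10.6 and 17.3 in T0 and 693, 702 and 554 in TPI (2.59 ± 0.47, adjusted p = 0.000446). *Tmem88*, an inhibitor of WNT signaling, had a difference of 2.17 ± 0.38, adjusted p = 0.000272 and *Dlg2*, a scaffold protein gene, of 2.26 ± 0.65, adjusted p = 0.0151, the latter lost without N0 replicate 3 (1.88).

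The largest difference among the called genes was that of *Ighg2c* (3.04 ± 0.96, adjusted p = 0.0423). It is an immunoglobulin heavy chain gene of B cells, counted 155, 62.6 and 82.3 in N0, 16.6, 0 and 16.1 in NPI, 68.1, 39.7 and 178 in T0 and 75.9, 84.5 and 106 in TPI, and was lost in 10 of the 12 fits without 1 library. The B cell markers summed to 941 to 2083 in NPI and 1064 to 2329.6 in TPI. *Gm11745*, of unknown function, had a difference of 2.41, and a copy each of the small nuclear RNAs U6 (2.56) and 7SK (2.29) was also among the 12. U6 and 7SK are multicopy genes whose reads can be split between copies, so their values are uncertain.

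The most abundant called genes with a higher response, beside *Nr4a1*, *Nr4a3* and *Egr2*, were regulators of chromatin and stress and a transporter. *Kdm6b*, which encodes a histone H3 lysine demethylase that removes Polycomb marks, counted 2243, 3356 and 3279 in N0, 42549.8, 45997 and 44757 in NPI, 1536, 1548 and 1545 in T0 and 68074, 65485 and 71019 in TPI (1.56 ± 0.15, adjusted p = 7.17e-08). *Dot1l*, a histone H3 methyltransferase gene, counted 1584, 1676 and 1536 in N0, 13399, 16659 and 15209 in NPI, 1357, 1354 and 1398 in T0 and 28943, 29754 and 31556 in TPI (1.22 ± 0.11, adjusted p = 7.17e-08). For both genes every TPI library was above every NPI library and every T0 library below every N0 library. *Ogt*, the enzyme that attaches O-linked GlcNAc, counted 10968, 11419 and 11925 in N0, 10441, 12382 and 12309.9 in NPI, 10848, 10915 and 13059.9 in T0 and 31306, 31941 and 30907 in TPI, with 9 libraries of the other groups between 10441 and 13059.9 (1.401 ± 0.12, adjusted p = 2.37e-08). *Trp53inp1*, a p53 target, counted 4974, 4169 and 4572 in N0, 7851, 9430.2 and 9779 in NPI, 4505, 4934 and 5987 in T0 and 38018, 35216 and 30072 in TPI (1.76 ± 0.16, adjusted p = 3.19e-07). *Slc41a1*, a magnesium transporter gene, had a difference of 1.203 ± 0.13, adjusted p = 6.63e-07. Further called genes of T cell biology, picked after their values were seen, were the receptors *Slamf1* (1.04) and *Slamf6* (1.06), the adenosine receptor *Adora2a* (1.52), the hypoxia factor *Hif1a* (1.18), the DNA demethylase *Tet2* (1.07) and *Zc3h12d* (1.55), which encodes an RNase of the Regnase family.

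Transcripts that span miRNA hairpins were among the genes with a higher response. *Mir17hg*, the host of the miR-17 to miR-92 cluster (chr14:115442100-115445950, mm9), counted 273, 325 and 393 in N0, 1394, 1857 and 1705 in NPI, 198, 177 and 188 in T0 and 3941, 4301 and 3368 in TPI (2.04 ± 0.18, adjusted p = 2.44e-07). The hairpin genes *Mir23b* and *Mir27b* lie within the span of the called gene *2010111I01Rik*, annotated as protein-coding (chr13:63066253-63427404, mm9), and the 3 had differences of 2.13, 1.93 and 1.44. *Mir23b* counted 6.93, 16.7 and 17.8 in N0, 42.6, 40.7 and 49.2 in NPI, 13.3, 7.95 and 10.5 in T0 and 152, 148 and 149 in TPI, and every TPI library was above every NPI library. *Mirlet7d* was also called (1.31 ± 0.44, adjusted p = 0.0389). These are counts of fragments of long RNA and not of mature miRNAs. For each of 9 hairpins in these transcripts 1 mature sequence from RefSeq is shown to let the seeds be read, with bases 2 to 8 in capitals. The mature sequence of the other arm is left out. For miR-23b only the 5p arm was among the sequences at hand, so the seed of its 3p arm is not shown.
mmu-miR-17-5p: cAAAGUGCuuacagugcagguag
mmu-miR-20a-5p: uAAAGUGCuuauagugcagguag
mmu-miR-18a-5p: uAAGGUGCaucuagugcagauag
mmu-miR-19a-3p: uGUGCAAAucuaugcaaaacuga
mmu-miR-19b-3p: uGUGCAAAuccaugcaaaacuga
mmu-miR-92a-3p: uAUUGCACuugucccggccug
mmu-miR-27b-3p: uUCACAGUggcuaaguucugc
mmu-miR-23b-5p: gGGUUCCUggcaugcugauuu
mmu-let-7d-5p: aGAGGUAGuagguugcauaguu
The miR-17 and miR-20a sequences share 1 seed, and miR-19a and miR-19b share another. The remaining 5 have a seed each.

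The largest lower differences included several genes of myeloid cells, while the marker lists of such cells were mixed. Of the 13 neutrophil markers 9 had a difference below zero and 4 above, with a median of -1.67. Of the 12 macrophage and monocyte markers 4 were below zero and 8 above, and none was called. Their median was 1.41, and 0.17 over the 8 with more than 3 counts in at least 1 library of each group. *Cd33*, a sialic acid receptor of myeloid cells, counted 17.8, 16.7 and 5.95 in N0, 157, 200.1 and 177 in NPI, 84.9, 105 and 42.2 in T0 and 59.8, 164 and 155 in TPI. Every T0 library was above every N0 library, and the TPI libraries overlapped both T0 and NPI (-3.02 ± 0.70, adjusted p = 0.0072). *Hp*, the haptoglobin gene that neutrophils express, counted 6.93, 7.31 and 5.95 in N0, 5.2, 5.5 and 2.55 in NPI, 104, 83 and 81.5 in T0 and 12.1, 7.68 and 16 in TPI (-2.22 ± 0.66, adjusted p = 0.0189), and the call was lost without NPI replicate 1 (-2.07) or NPI replicate 2 (-2.03). *Cd177* (-2.72 ± 0.72, adjusted p = 0.0105) and *Elane* (-2.15 ± 0.69, adjusted p = 0.0299) are neutrophil surface and granule genes and were the 2 called of 13 neutrophil markers, whose summed level fell from T0 to TPI as given above. The call was lost without NPI replicate 1 for *Cd177* (-2.41) and in 6 of the 12 fits without 1 library for *Elane*. *Alox5* and *Clec4e*, also genes of myeloid cells, had differences of -2.099 and -2.08 and lost their calls in 9 fits each without 1 library, *Alox5* with -1.48 without TPI replicate 1 and *Clec4e* with -1.47 without T0 replicate 1. *Sgms2*, a sphingomyelin synthase gene, counted 9.91, 3.13 and 2.97 in N0, 136, 144 and 146 in NPI, 29.2, 38.9 and 26.9 in T0 and 162, 167 and 157 in TPI (-2.35 ± 0.51, adjusted p = 0.00198). The TPI libraries were slightly above the NPI libraries, and the T0 libraries were well above N0. *Miat*, a noncoding RNA, was high in both tolerized groups (-2.34 ± 0.70, adjusted p = 0.0284) and was lost in 8 fits. *Ccdc164* (-2.52), *Gm16534* (-2.04) and *n-R5s40*, a copy of the 5S ribosomal RNA gene (-2.04) were also among the 12, as was the apoptosis gene *Bbc3* described above.

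Genes of innate-like lymphocytes were also called lower, picked after their values were seen. *Zbtb16*, which encodes PLZF of NKT cells, had a difference of -1.53, *Sox13* and the γδ receptor genes *Trdv4* and *Tcrg-C* had -1.43, -1.53 and -1.302, and the NK receptor genes *Klrb1b*, *Klra9*, *Klrc1* and *Klrd1* had -1.59, -1.48, -1.39 and -1.22. *Tcrg-C* averaged 57.4 in N0, 30.8 in NPI, 690 in T0 and 151 in TPI, and so was higher in tolerized cells with PI too. *Trdv4* (99.4 in NPI and 94.9 in TPI) and *Klrc1* (299 and 281) were close with PI and higher in T0 than in N0. The averages of *Zbtb16*, *Sox13*, *Klrb1b*, *Klra9* and *Klrd1* were higher in T0 than in N0 and lower in TPI than in NPI. *Klrd1* counted 263, 233 and 154 in N0, 64.5, 113 and 78.9 in NPI, 333, 376 and 258 in T0 and 42, 61.5 and 60.3 in TPI. The 6 NK cell markers summed to 921 to 1614 in N0, 1294 to 2207 in NPI, 1407 to 1623 in T0 and 805 to 1126 in TPI, lowest in TPI, and none of the 6 was called. Their part in these differences was not tested.

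Resting levels were described for the called genes of each direction. Of the 301 higher genes, 218 differed by less than 0.5 on the log2 scale between T0 and N0, 12 were at least 1 lower in T0 and 4 at least 1 higher. Of the 253 lower genes, 129 differed by less than 0.5 at rest, and 71 were at least 1 higher in T0. Over all tested genes 12189 of 17240 differed by less than 0.5, 661 were at least 1 lower in T0 and 1689 at least 1 higher. The shares of higher genes that were close at rest, or at least 1 lower in T0, were near those of all tested genes. The median difference of TPI from NPI was 1.09 for the higher and -1.04 for the lower genes. The resting difference enters the difference in response with its sign turned, so these counts are descriptions with no test. *Irf1*, *S1pr1*, *Klf2*, *Txnip* and *mt-Nd2* belong to the genes that were close at rest, and *Cd33*, *Miat*, *Hp* and *Cxcl2* to those already high in T0.

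**Figure D4:**
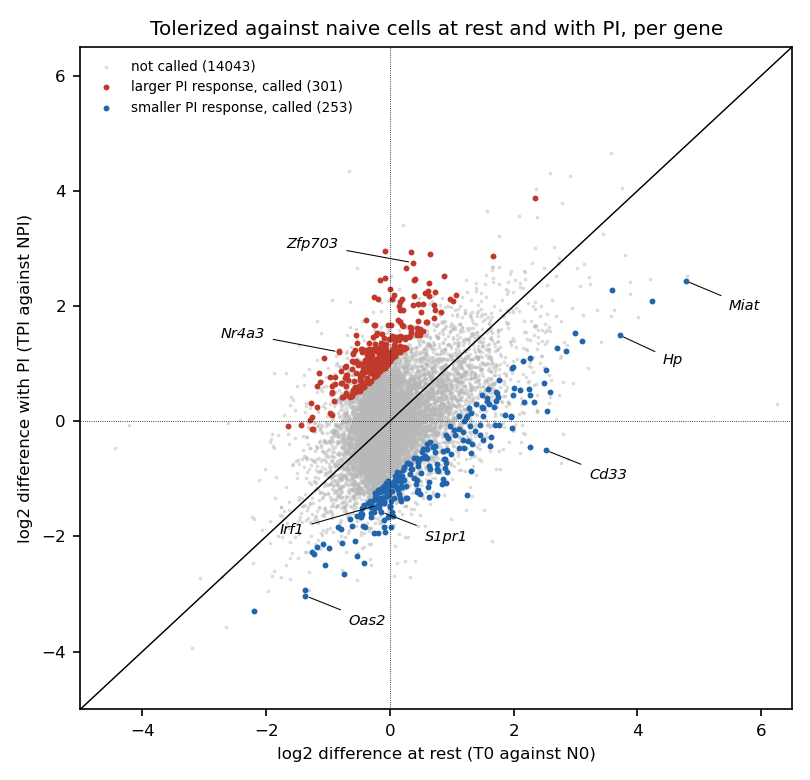
Log2 difference between tolerized and naive cells at rest (horizontal, T0 against N0) and with PI (vertical, TPI against NPI) for the same 14597 genes, with the line of equal differences. The 301 higher genes stand mostly above 0 on the vertical axis near 0 on the horizontal axis, and the 253 lower genes include a tail of 71 genes at 1 or more at rest.

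The difference in response to Ag was set beside that to PI for the named genes. Both differences use the same T0 and N0 libraries, so they are not independent, and each is given with its own test. With Ag, 525 genes were called higher (3.05%) and 384 lower (2.23%). *Cd40lg* had -3.57 ± 0.22, adjusted p = 9.01e-09 with Ag against 1.32 with PI, and the difference between these values was 4.89 ± 0.21, adjusted p = 3.12e-11. *Nr4a3* had -1.404 ± 0.22, adjusted p = 0.000161 with Ag against 2.02 with PI (3.43 ± 0.20, adjusted p = 4.42e-10 for the difference of these). *Ndrg1* had -2.16 against 1.98, *Nfkb1* -1.62 against 0.98, *Fasl* -1.51 against 1.004 and *Slc41a1* -1.57 against 1.203. These genes responded less to Ag and more to PI in tolerized than in naive cells. They were picked for passing with opposite signs, so the tests between their values add no support. The other direction was seen for *S1pr1*, at 1.21 with Ag and -1.44 with PI, *Oas2*, at 1.903 and -1.67, *Irf1*, at 0.54 and -1.27, and *Dhcr7*, at 1.01 and -1.08. *Nab2* (1.23 with Ag) and *Zfp703* (1.72) were higher with both stimuli, and *Gpr183* (-1.27) and *Sgms2* (-2.25) lower with both. Ag was given in the mouse and PI in culture, so stimulus and setting cannot be told apart.

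**Figure D5:**
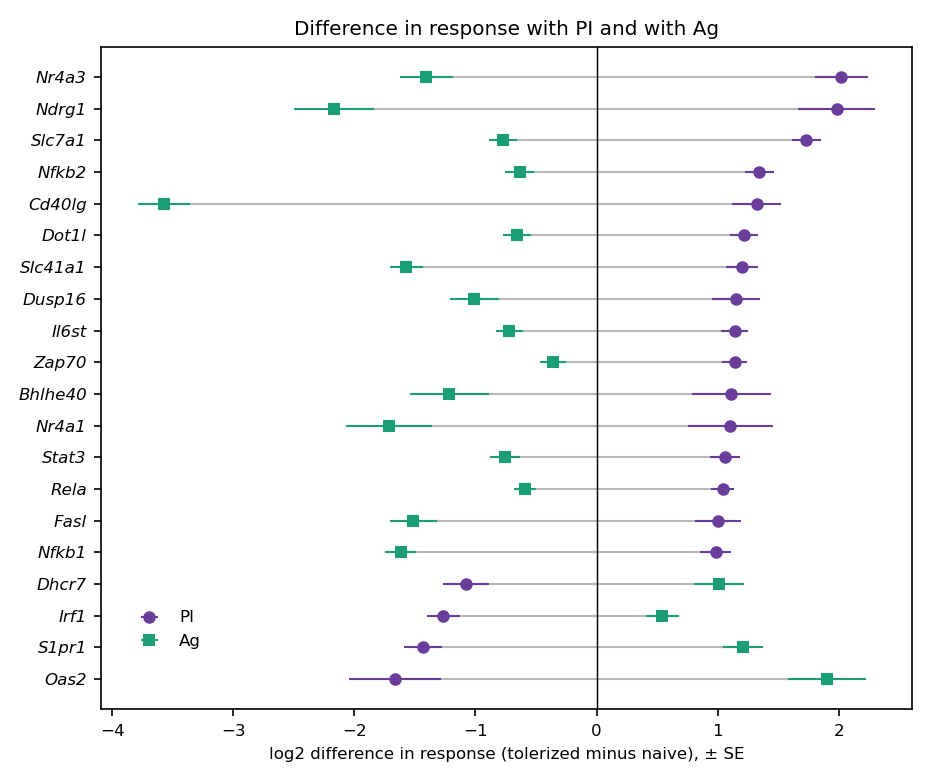
Log2 difference in response between tolerized and naive cells with PI (circles) and with Ag (squares), ± SE from the fit, for the named genes that passed in both with opposite sign. *Cd40lg* has the widest separation (4.89) and *Zap70* the narrowest (1.500).

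Called genes were also described by their length, base composition and overlap with other genes, with no test. Of the higher genes 246 and of the lower genes 218 were annotated as protein-coding. Among these the median exon length was 4375 bases for higher, 3286 for lower and 3559 for genes not called, and the median GC content of exons was 48.3%, 51.0% and 49.9%. With offsets for length and GC content in the fit, an alternative chosen after seeing the data, 361 genes were called higher and 210 lower, and 293 and 202 of the original calls were among them. Exons of 94 of the 301 higher genes (31.2%) and 60 of the 253 lower genes (23.7%) overlapped those of another gene, where 25.1% of all tested genes did, and for 77 and 47 of them the other gene was on the opposite strand. The strand setting of the counting was not given in the sources used here, so reads from the shared bases cannot be assigned. Of the 80 named genes that were called, 62 kept an adjusted p below 0.05 and their sign in each of the 12 fits without 1 library. Of these, 22 kept both in 7 alternative fits as well, among them *Relb*, *Nfkb2*, *Rela*, *Nab2*, *Cflar*, *Slc7a1*, *Zap70*, *Rasgrp1*, *Bcl10*, *S1pr1* and *mt-Nd2*. The 7 fits did not include the length and GC offsets or the combined edgeR and DESeq2 calls, which were not checked for single genes.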

How the data were processed

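RNA-seq libraries of enriched CD4 T cells were made after ribosomal RNA depletion and sequenced as paired ends. The authors aligned reads to mm9 with TopHat2 2.1.1 and counted them per Ensembl gene with HTSeq 0.9.1, and deposited raw read counts, 1 file per library. The strand setting of the counting was not given in the sources used here. Deposited counts were analysed with edgeR 4.0.16 in R 4.3.3 (robust quasi-likelihood fit of 6 group means over 18 libraries, TMM normalization), on the 17240 genes whose mean reached 3 normalized counts in 1 or more groups. Normalized counts are counts divided by the relative TMM-scaled library size. P-values were adjusted over all tested genes by the Benjamini-Hochberg method. Total counts were 10758571 to 24119489 in the 12 libraries compared, and errors of low counts are large. The paper describes the RNA-seq data as 3 biological replicates, while nothing in the labels says whether libraries of a group came from separate mice. P-values therefore measure the spread between these libraries. Replicates differed by more than sampling noise (chi-square per degree of freedom at least 2.68).

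Named genes were the 12 largest differences and the 8 most abundant called genes in each direction, called list members, and immune response and tolerance genes of the study. Some of the largest differences are not reported here. The members, lists and tests were chosen with earlier results of these data known. Genes were placed with GENCODE vM1 on mm9, which matched 37205 of 37991 identifiers. Alternatives were DESeq2 1.42.0, its size factors, other filters, 12 libraries, a replicate block, covariates and leaving out each library. On simulated counts with known differences in PI response (17088 genes tested), 90% of differences of 1.5 on the log2 scale and 95% of 2.5 were recovered. The known differences were placed in 100 genes for each size, all with means well above zero in each of the 4 groups. The rates therefore do not cover genes with few counts at rest, such as *Il10*, *Hp* and *Cd33*. Nor do they cover differences smaller than 1.5, and the median size over the called genes was 1.26.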

Additional observations from a re-analysis of the deposited data

Results flagged for a closer look

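The PI response differed between tolerized and naive cells by the test of the difference itself for 301 genes in the higher and 253 in the lower direction. For the named genes below, the difference in response also had opposite signs with PI and with Ag. They were kept because both differences passed with opposite signs. The gap between tolerized and naive cells with PI was compared with that with Ag in edgeR, each gene with an adjusted p below 0.05. That comparison equals the PI difference minus the Ag difference, so its result followed largely from the choice of genes and adds no support. The PI calls of *Nr4a1* and *Bhlhe40* were lost in 10 and 6 of the 12 fits without 1 library. On the log2 scale the gap with PI exceeded that with Ag by 4.89 for *Cd40lg*, 4.15 for *Ndrg1*, 3.43 for *Nr4a3*, 2.82 for *Nr4a1*, 2.77 for *Slc41a1*, 2.600 for *Nfkb1*, 2.52 for *Fasl*, 2.51 for *Slc7a1*, 2.33 for *Bhlhe40*, 2.16 for *Dusp16*, 1.98 for *Nfkb2*, 1.88 for *Dot1l*, 1.86 for *Il6st*, 1.82 for *Stat3*, 1.63 for *Rela* and 1.500 for *Zap70*. It was smaller, with values of -3.57 for *Oas2*, -2.65 for *S1pr1*, -2.09 for *Dhcr7* and -1.81 for *Irf1*. Ag was given in the mouse and PI in culture, and the part of that difference in these values was not tested.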

How the results depend on the processing

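Counts of called genes stayed within 1.5 times the values reported under DESeq2 (320 higher and 266 lower), calls by DESeq2's adjusted p and an unadjusted p below 0.05 in edgeR, with mean counts on edgeR's scale (319 and 267), DESeq2 size factors (310 and 240), no filter on low counts (295 and 240), 12 libraries (236 and 372), the share of Y-linked reads as a covariate (285 and 222) and length and GC offsets (361 and 210). Replicate numbers did not pair the libraries: correlations of the deviations of same-numbered libraries lay between -0.14 and 0.11, and with the replicate number as a block 296 and 249 genes were called. With marker scores as covariates 19 genes were called lower, and 1154 genes were called lower in the response of tolerized cells. By adjusted p alone 2187 genes were higher and 1297 lower, 4935 and 5642 in the response of naive cells and 5509 and 6259 in that of tolerized cells. Without a minimum average count the difference gave 339 and 362 genes, the naive response 2713 and 2767 and the tolerized response 3746 lower. Without 1 library, 263 to 368 genes were higher and 196 to 282 lower. In these fits 25 to 38 list members were called higher and 11 to 24 lower, against 31 and 18. Of the 301 higher and 253 lower calls, 257 to 285 and 172 to 207 stayed called without 1 library. With Y-linked reads as a covariate 255 and 167 stayed called, so similar totals did not always mean the same genes.

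No named gene that was called changed sign without 1 library. Under marker scores the sign turned for U6 (-0.22), *Dlg2* (-0.52), *Cd177* (0.073), *Elane* (2.17), *Klf2* (0.27), *Csf1* (0.025), *Ddit4* (0.14), *Ccnb1* (1.47) and *Cxcl2* (0.15), and for the uncalled *Dusp6* (0.21), *Maf* (-0.12), *Nfil3* (-0.39) and *Tigit* (-0.39), and the cause was not tested. Among uncalled genes the sign of *Csf2* also turned in DESeq2 (0.0089) and with Y-linked reads (0.43), as did that of *Havcr2* (0.020). Without 1 library *Csf2* ranged from -0.51 to 0.50, *Havcr2* from -1.34 to 0.22, *Il10* from -1.13 to 0.067, *Dusp6* from -0.43 to 0.036 and *Ccl1* from -4.90 to 0.38. Of the 80 named genes that were called, 58 lost the call or sign with marker scores, 10 with Y-linked reads, 8 with no filter, 7 with the block and 5 with 12 libraries. Of the 20 cytokine genes tested, 10 had more than 3 counts in at least 1 library of each group.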
